A study of Mus musculus with 40 samples.

Results

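The genes of 10 major urinary proteins were followed in the livers of 40 male mice: Mup1, Mup3, Mup7, Mup9, Mup11, Mup14, Mup17, Mup19, Mup20 and Mup21. They were found by symbol among the 40239 genes that both count tables hold after the removal of rRNA genes, and they are 10 of the 21 numbered Mup genes there. The members were chosen by measured values, namely the levels and contrasts of these same counts as an earlier analysis gave them, so their values stand as a description and carry no p. All mice were C57BL6/J by the labels and 5 months old, and they formed 8 groups of 5. Wildtype (WT) mice ate a control diet or a high-fat diet (HFD), each plain or with pioglitazone (Pio), and the 4 groups are named control, Pio, HFD and HFD-Pio. Liver-specific PPARγ knockout (KO) mice, which carried PPARγ-loxP alleles and the Alb-Cre transgene, received the same 4 diets. Pio is a thiazolidinedione that binds and activates the nuclear receptor PPARγ. Cre under the albumin promoter acts in hepatocytes, and liver cells of KO mice in which it does not act keep PPARγ. WT mice were C57BL6/J mice, for which the methods name no loxP allele and no Cre. The counts of WT and KO mice came in separate tables, so a difference in level between the genotypes cannot be told apart from one between the tables. Effects were therefore compared within a genotype.

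Major urinary proteins are small secreted lipocalins, proteins folded into a barrel that holds a hydrophobic ligand in its pocket. Hepatocytes of male mice make them in large amounts under the control of pulsatile growth hormone acting through STAT5, with androgen, thyroid hormone and glucocorticoid as further inputs. The proteins pass into the urine, where they bind and slowly release volatile pheromones and serve as signals of individual identity. Mup20, also named darcin, is itself a male pheromone. The family is known for large differences in abundance between mice and for falling in obese and diabetic mice, where Mup1 has been studied as a circulating metabolic signal.

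The members lie on chromosome 4, with other numbered Mup genes between them. Most are close copies, which limits what a count of uniquely placed reads can tell. All 10 are on the minus strand of GRCm38, from Mup7 (chr4:60066469-60070475) through Mup9 (chr4:60418046-60421952), Mup1 (chr4:60498012-60501960), Mup11 (chr4:60658466-60662411), Mup14 (chr4:61300023-61304000), Mup17 (chr4:61591929-61595871), Mup19 (chr4:61778324-61782269), Mup20 (chr4:62050234-62054158) and Mup3 (chr4:62083476-62087342) to Mup21 (chr4:62147932-62150863). None overlapped another annotated gene. The stretch below shows bases 131 to 220 of the Mup9 coding sequence in the GENCODE M21 transcripts with the same stretch of other members. It is shown because reads that fall within it can be placed in some members and not in others. Capitals mark bases that differ from Mup9.
Mup9: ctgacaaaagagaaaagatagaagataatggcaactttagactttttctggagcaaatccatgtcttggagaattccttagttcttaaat
Mup17: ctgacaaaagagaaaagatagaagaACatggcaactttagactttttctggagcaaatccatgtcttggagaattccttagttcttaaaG
Mup7: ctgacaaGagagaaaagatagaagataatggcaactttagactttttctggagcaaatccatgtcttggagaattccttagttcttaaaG
Mup20: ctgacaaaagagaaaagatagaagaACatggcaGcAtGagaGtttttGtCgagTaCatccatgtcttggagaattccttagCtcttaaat
Mup3: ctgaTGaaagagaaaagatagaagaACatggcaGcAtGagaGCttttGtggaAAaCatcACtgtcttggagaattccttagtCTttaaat

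Over these 90 bases Mup1, Mup11 and the non-member Mup18 had 0 differences from Mup9, and Mup21 had the same 17 differing bases as Mup3. Over the whole coding sequence Mup9 differed from Mup19 at 1 position, and Mup11 from Mup18 at 1. Mup1 differed from Mup12 at 2 positions, Mup14 from Mup12 at 3, Mup7 from Mup12 at 4 and Mup17 from Mup13 at 4. The most distinct members were Mup3, whose nearest copy was Mup21 at 94.7% identity, and Mup20, whose nearest was Mup11 at 91.3%. Of all windows of 50 bases along the transcripts of a gene, the share found in no other gene was 86.7% in Mup3, 80.7% in Mup21, 49.5% in Mup20 and 38.4% in Mup1. It was 22.2% in Mup11, 21.9% in Mup17, 20.9% in Mup9, 16.0% in Mup14 and 13.3% in Mup7. In Mup19 it was 0%. Levels of the near-identical members are thus less certain than those of Mup3, Mup20 and Mup21, because reads shared by copies were not counted. The length of the reads was not given in the sources used here.

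The sequence before the genes was also shared. RefSeq promoter entries, 250 bases before to 50 after a start on GRCm38.p6, were held for 8 members. The letters TATATAA, searched on both strands, occurred in 7 of the 8 and in 3.24% of all 32851 promoters of the same length. The letters TATAAA (13.6% of all promoters), AGGTCA (16.3%), the site to which many nuclear receptors bind, and TTCNNNGAA (8.30%), the core letters that STAT factors bind, were in 0 of the 8. A direct repeat of AGGTCA with 1 base between, which includes the single site, was in 0 of the 8 and in 0.0396% of all. These are matches of letters in this window and not measurements of binding. The windows below run from 100 bases before TATATAA to 23 after it, on the minus strand, for the 2 members that differed most with Pio and for Mup11 and Mup3. Capitals mark TATATAA in Mup9. In the others they mark bases that differ from Mup9 or have no counterpart in the Mup9 window.
Mup9, chr4:60421954-60422083: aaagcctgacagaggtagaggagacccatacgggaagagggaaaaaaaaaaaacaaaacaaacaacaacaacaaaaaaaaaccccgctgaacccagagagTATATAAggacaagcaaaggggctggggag
Mup17, chr4:61595828-61595957: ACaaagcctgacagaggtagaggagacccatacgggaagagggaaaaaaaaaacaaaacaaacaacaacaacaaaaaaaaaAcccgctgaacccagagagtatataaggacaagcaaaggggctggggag
Mup11, chr4:60662368-60662497: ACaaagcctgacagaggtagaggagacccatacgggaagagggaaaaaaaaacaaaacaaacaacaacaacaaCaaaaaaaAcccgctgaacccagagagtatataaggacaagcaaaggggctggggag
Mup3, chr4:62087299-62087428: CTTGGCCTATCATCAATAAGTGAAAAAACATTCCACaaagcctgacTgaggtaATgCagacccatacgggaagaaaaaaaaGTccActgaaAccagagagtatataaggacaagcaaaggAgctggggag

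Mup17 was 96.2% and Mup11 94.7% identical to Mup9 in these windows, against 51.2% for Mup3. Identity was taken over aligned columns with gaps counted as differing. Windows of 130 bases took 132 columns for Mup17, 133 for Mup11 and 166 for Mup3. Bases at the start of the Mup3 window that have no counterpart in that of Mup9 thus lower its value, which is not the share of changed bases. By the same measure Mup19 reached 94.0%, Mup14 80.1% and Mup21 47.9%, the last over 169 columns. The 2 promoter entries not held were those of Mup1 and Mup20, and that of Mup7 held no TATATAA.

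WT libraries held 15788242 to 49857017 counts and KO libraries 21542958 to 28334251. The hepatocyte gene Alb stood at 10663 to 109384 normalised counts (CPM, scaled to a common library size) over all mice. Whole-gene counts of Pparg spanned 5.79 to 14.2 CPM in WT and 3.01 to 9.90 CPM in KO mice, and they do not show whether the loxP-flanked part was lost. The library of KO Pio mouse 13 stood apart, with 0.852% of its counts from mitochondrial genes against 3.72 to 21.03% in the other 39 mice. Its summed hepatocyte markers (Alb, Apoa1, Ttr, Serpina1a, Tat and Cps1) reached 31851 CPM against 64604 to 144515, and its 10 members summed to 984 CPM, the lowest of all mice. All 8 groups share 1 estimate of the spread in the fits, so this mouse entered every comparison. Without it the number of all genes called went from 506 to 2011 in the control-diet comparison of Pio in WT mice, from 140 to 1504 in that on HFD, from 170 to 849 for HFD in WT mice without Pio and from 158 to 1123 with Pio. In KO mice it went from 1166 to 66 for Pio on control diet and from 642 to 12 for HFD with Pio. Among members the call that changed with it was that of Mup17 for Pio in KO mice on control diet. WT Pio mouse 845 had the 21.03% of mitochondrial counts, with the next highest mouse at 10.9%. Markers of other cells were high in single mice. KO HFD mouse 9 had 859 CPM of summed macrophage markers against at most 609 in the other mice. It also had 82.2 CPM of cholangiocyte markers, the highest of all mice, and 64604 CPM of hepatocyte markers. KO HFD mouse 10 had 491 CPM of summed acinar markers against at most 28.1 in the other mice, and 13.1 CPM of muscle markers against at most 0.298. WT control mouse 832 had 593 CPM of stellate cell markers against at most 367 in the other mice, with 73.8 CPM of cholangiocyte and 71180 CPM of hepatocyte markers. In bulk liver, fewer hepatocytes and less RNA per hepatocyte cannot be told apart.

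Mup3 and Mup20 carried most of the family's counts in every group. Per kilobase of exon, Mup3 stood at a mean of 3464 CPM in WT mice, rank 19 of 12932 genes, and at 5968 CPM in KO mice, rank 11. Mup20 followed at 1152 CPM per kilobase in WT (rank 48) and 1521 in KO mice (rank 34). In WT mice the order went on with Mup17 at 772 CPM per kilobase (rank 65), Mup21 at 215 (rank 200), Mup11 at 207 (rank 205), Mup7 at 145 (rank 298), Mup9 at 60.7 (rank 657), Mup14 at 15.0 (rank 2209) and Mup1 at 5.69 (rank 4576). The order differed in KO mice, where Mup21 at 469 CPM per kilobase (rank 85), Mup7 at 336 (rank 121) and Mup11 at 302 (rank 139) came before Mup17 at 69.6 (rank 535). Mup14 stood at 32.7 (rank 1063), Mup1 at 8.96 (rank 3296) and Mup9 at 1.86 (rank 8240) in KO mice. Mup21 and Mup11 in WT mice and Mup7 and Mup11 in KO mice were neighbours in this order whose means differed by less than their spread over mice. These values divide uniquely placed reads by the full exon length. The share of windows found in no other gene ran from 13.3% in Mup7 to 86.7% in Mup3 among these members. The order is thus one of uniquely placed reads, and the order of the true levels may differ. Mup19, the copy with no window of its own, had 0 to 35 counts in a mouse, a mean of 0.0672 to 0.762 CPM by group, and did not reach 1 CPM in at least 5 mice. Its 3 counts of 0, all in WT control mice, allow up to 3 counts each. The other 9 members entered the fits.

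**Figure D1:**
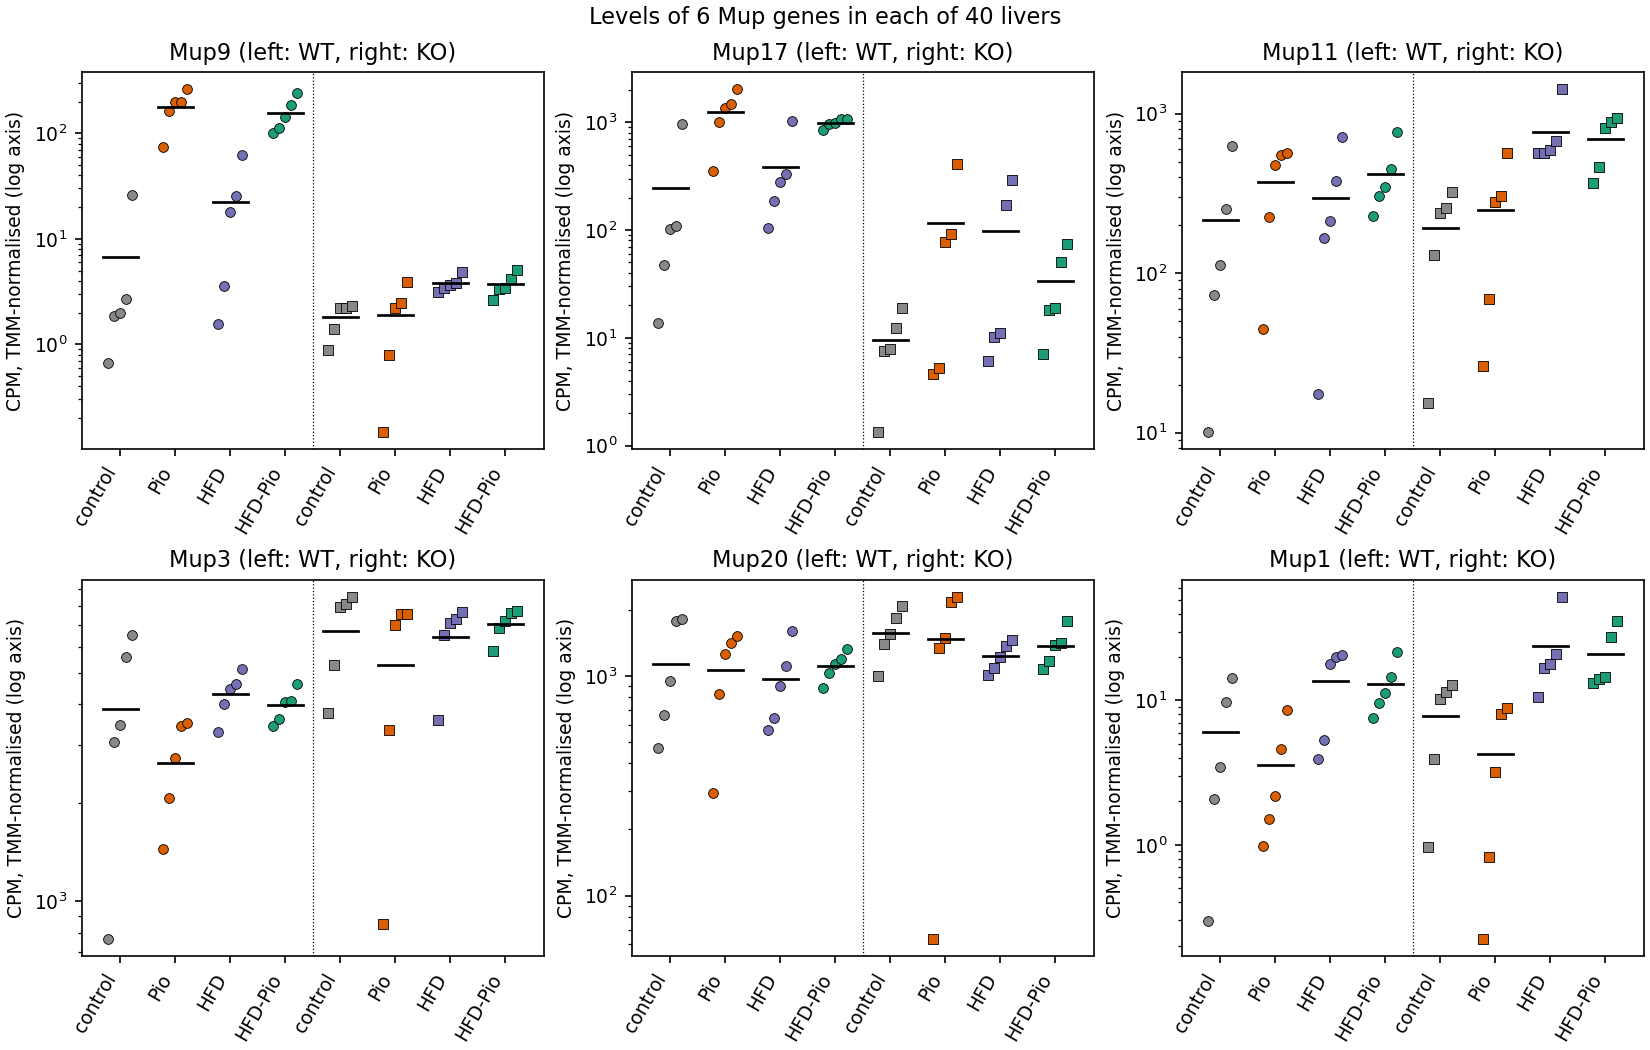
CPM (log axis) of Mup9, Mup17, Mup11, Mup3, Mup20 and Mup1 in each of the 5 mice of the 8 groups, with a line at the group mean. In WT mice, Mup9 lay at 74.7 CPM or more in every mouse with Pio and at 63.0 or less in every mouse without it, while Mup3 and Mup20 overlapped in all comparisons of diets.

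The first question was what Pio did to the family in WT mice on control diet. Mup9 was higher in every treated mouse. Its levels were 1.97, 0.670, 1.87, 2.69 and 26.1 CPM in the WT control mice and 199, 74.7, 197, 261 and 163 CPM in the WT Pio mice. The groups did not overlap, and the control mouse at 26.1 CPM, number 835, was the highest of its group in all 10 members. Mean levels were 6.65 ± 10.9 (SD, n = 5) and 179 ± 68.3 CPM, and the log2 fold change was 4.73 ± 0.78 (SE). Over all genes tested, 7.53% had groups that did not overlap in this comparison. Mup9 was called by the edgeR quasi-likelihood test at an adjusted p of at most 0.05, 1 of the 9 members tested. In this comparison 3.91% of all 12942 genes were called, 2.44% as higher, and since the members were picked with results known nothing is read from that count.

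Mup17 differed in the same direction but with more spread. WT control mice had 109, 13.8, 47.6, 102 and 958 CPM, and WT Pio mice 1349, 353, 1481, 2018 and 1008 CPM. Mouse 835 lay inside the treated range, so the groups overlapped. Mup17 was not called, at a log2 fold change of 2.33 ± 1.03 (SE). It was 4.19 and called without mouse 835.

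The remaining 7 members showed no such shift on control diet. Mup3, the member with the most counts, stood at 3879 ± 2256 CPM (SD, n = 5) in WT control and 2641 ± 889 CPM in WT Pio mice. Its log2 fold change was -0.55 ± 0.39 (SE). Mup20, the pheromone darcin, was at 1135 ± 630 and 1064 ± 505 CPM, a log2 fold change of -0.09 ± 0.46. Log2 fold changes were -0.75 ± 0.74 for Mup1, -0.09 ± 0.74 for Mup7, 0.80 ± 0.78 for Mup11, 0.98 ± 0.77 for Mup14 and -0.49 ± 0.49 for Mup21. By edgeR 0 of the 7 were called, while limma with sample weights called Mup3 as lower, at -0.71. Without mouse 845, whose mitochondrial share was high, the value of Mup9 was 4.77 and that of Mup7 0.04. The median over the 9 members was -0.09, against -0.02 over all genes.

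On HFD, Pio again went with high Mup9 in WT mice. Without Pio its levels were 63.0, 25.6, 18.0, 1.57 and 3.54 CPM, and with Pio 143, 184, 102, 113 and 240 CPM. The groups did not overlap, which held for 7.12% of all genes tested. The log2 fold change was 2.80 ± 0.71 (SE), and Mup9 was the 1 member of 9 called, where 1.08% of all genes were called and 0.603% as higher. That call was lost in 3 of 7 other settings and on leaving out any 1 of 11 mice, although the log2 fold change stayed between 2.50 and 3.69. Mup17 stood at 1025, 281, 332, 104 and 185 CPM without Pio and at 972, 984, 1062, 848 and 1075 CPM with it. Its treated mice lay within a narrow band, and mouse 826 reached the same level without Pio. The log2 fold change of Mup17 was 1.36 ± 1.00. Log2 fold changes of the other 7 members ran from -0.32 (Mup21) to 1.25 (Mup14), with a median over all 9 of 0.50 against -0.02 over all genes.

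Adipocyte markers moved with Pio in WT livers. On control diet Adipoq, Plin1, Lep and Retn summed to 0.0372 to 0.181 CPM without Pio and 2.44 to 4.84 CPM with it. On HFD the sums were 0.0600 to 0.304 CPM without and 0.318 to 2.31 CPM with Pio. Retn carried this, with 2.33 to 4.76 CPM in WT Pio mice, while Adipoq was at 0 in 3 of those 5 mice, Plin1 in 3 and Lep in 4. Their part in the Mup9 result was not tested.

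In uniquely placed reads, the shift with Pio in WT mice changed the make-up of the family more than its total. The share of windows found in no other gene was 86.7% in Mup3 against 21.9% in Mup17 and 20.9% in Mup9. Shares and totals over all reads of the family are thus not known. Mup17 took a mean of 2.95 ± 3.41% (SD, n = 5) of the members' counts in WT control mice and 20.6 ± 3.33% in WT Pio mice, and 5.52 ± 3.95% in WT HFD against 14.1 ± 0.826% in WT HFD-Pio mice. Mup9 went from 0.0829 ± 0.0901% to 3.15 ± 0.327% on control diet and from 0.313 ± 0.294% to 2.22 ± 0.732% on HFD. Shares of Mup9 did not overlap between mice with and without Pio on either diet, since the highest without Pio was 0.748% and the lowest with it 1.39%. Mup3 took the largest share throughout. On control diet that was 67.0 ± 7.00% without and 48.1 ± 9.15% with Pio, and on HFD 70.2 ± 10.7% without and 56.7 ± 3.92% with it. Shares add up to the whole, so a rise of 1 member lowers the others. In KO mice Mup17 stayed at means of 0.102 to 1.16% and Mup9 at 0.0199 to 0.0409% of the members' counts.

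**Figure D2:**
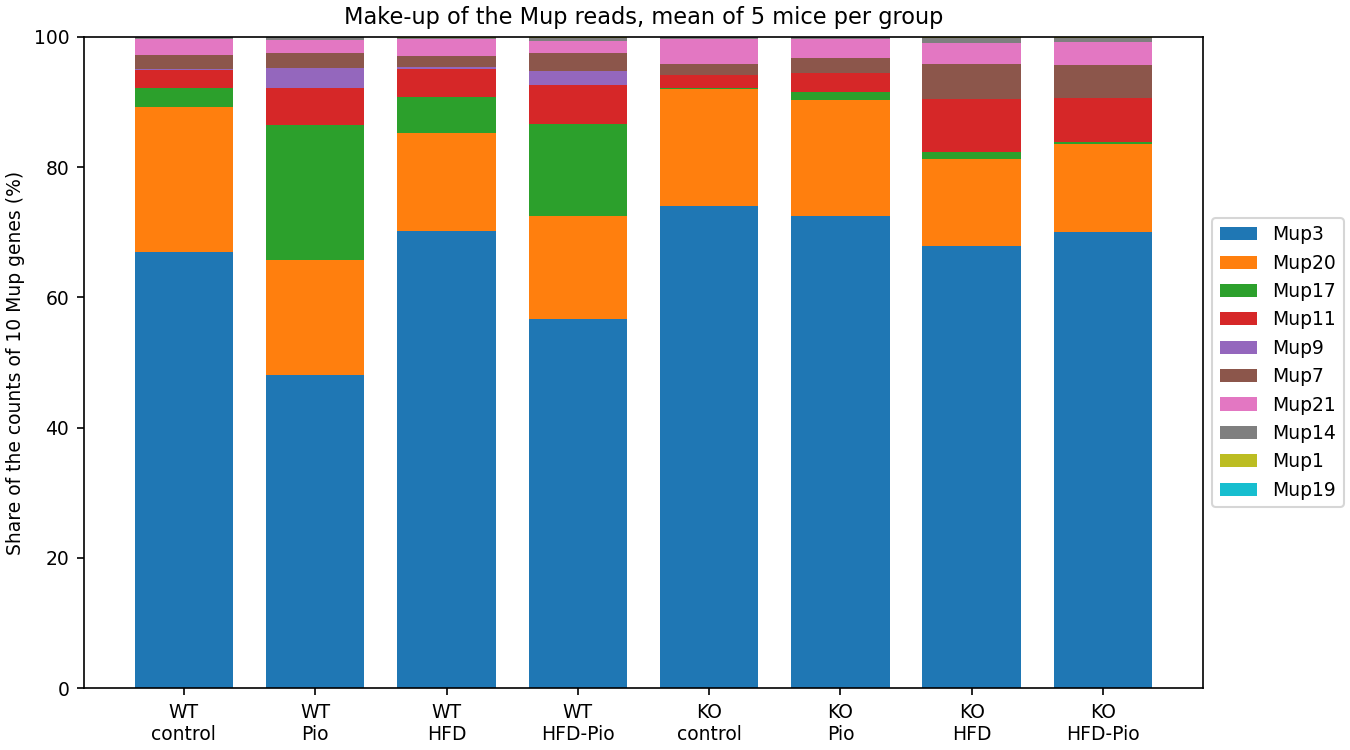
Mean percent of the members' summed counts of uniquely placed reads taken by each of the 10 members, as stacked bars for the 8 groups of 5 mice. Mup17 takes 20.6% in WT Pio mice against 2.95% in WT control mice and at most 1.16% in a KO group, while Mup3 takes from 48.1% to 74.1%.

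In KO mice Mup9 was low in every group. On control diet its levels were 2.30, 2.21, 0.886, 2.22 and 1.39 CPM without Pio and 2.19, 0.790, 0.149, 3.94 and 2.47 CPM with Pio. These ranges overlapped, and the log2 fold change was 0.07 ± 0.76 (SE), or 0.39 without mouse 13, which had the 0.149 CPM. On HFD it was -0.03 ± 0.71. The difference between the Pio effects of KO and WT mice was -4.66 ± 1.05 on the log2 scale for Mup9 on control diet, and -4.34 without mouse 13. Mup9 was 1 of 9 members called in that comparison, in which 7.87% of all genes were called and 2.49% as lower. Without mouse 13 the number of all genes called there went from 1018 to 738. On HFD the same difference was -2.83 ± 0.99, and edgeR called 0 of 9 members and 0.0927% of all genes, while limma with sample weights called Mup9.

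Mup17 had another pattern in KO mice. Its levels were 7.50, 18.7, 1.35, 12.5 and 7.81 CPM in KO control mice and 78.2, 4.63, 5.28, 408 and 91.0 CPM in KO Pio mice. Mice 12 and 13 lay within the control range, and the groups overlapped, as did those of all other members, where 3.7% of all genes had groups that did not overlap. The log2 fold change of 3.61 ± 1.10 (SE) was called, 1 of 9 members, while 9.01% of all genes were called and 7.75% as higher. Without mouse 13 it was 3.94 and not called, and the count over all genes fell from 1166 to 66. On HFD Mup17 stood at 6.12, 11.0, 10.2, 171 and 290 CPM without Pio and 18.0, 7.03, 18.9, 74.1 and 50.02 CPM with it, a log2 fold change of -1.54 ± 1.01. A pair of KO HFD mice, 9 and 10, carried the high mean of that group. Both had high markers of other cells, whose part was not tested. In the comparison of Pio on HFD in KO mice 0 of 9 members were called and 0 had groups that did not overlap, against 0.0155% and 0.61% of all genes. Median log2 fold changes of Pio over the members were 0.07 on control diet, or 0.39 without mouse 13, and -0.03 on HFD in KO mice.

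Whether the Pio effect differed between diets was also tested. For Mup9 in WT mice the difference, HFD minus control diet, was -1.93 ± 0.95 (SE) on the log2 scale, and for Mup17 in KO mice it was -5.15 ± 1.48, or -5.49 without mouse 13. Neither was called. The comparison called 0 of 9 members in WT mice, where 0.0773% of genes were called, and 0 of 9 in KO mice, where 0% were.

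**Figure D3:**
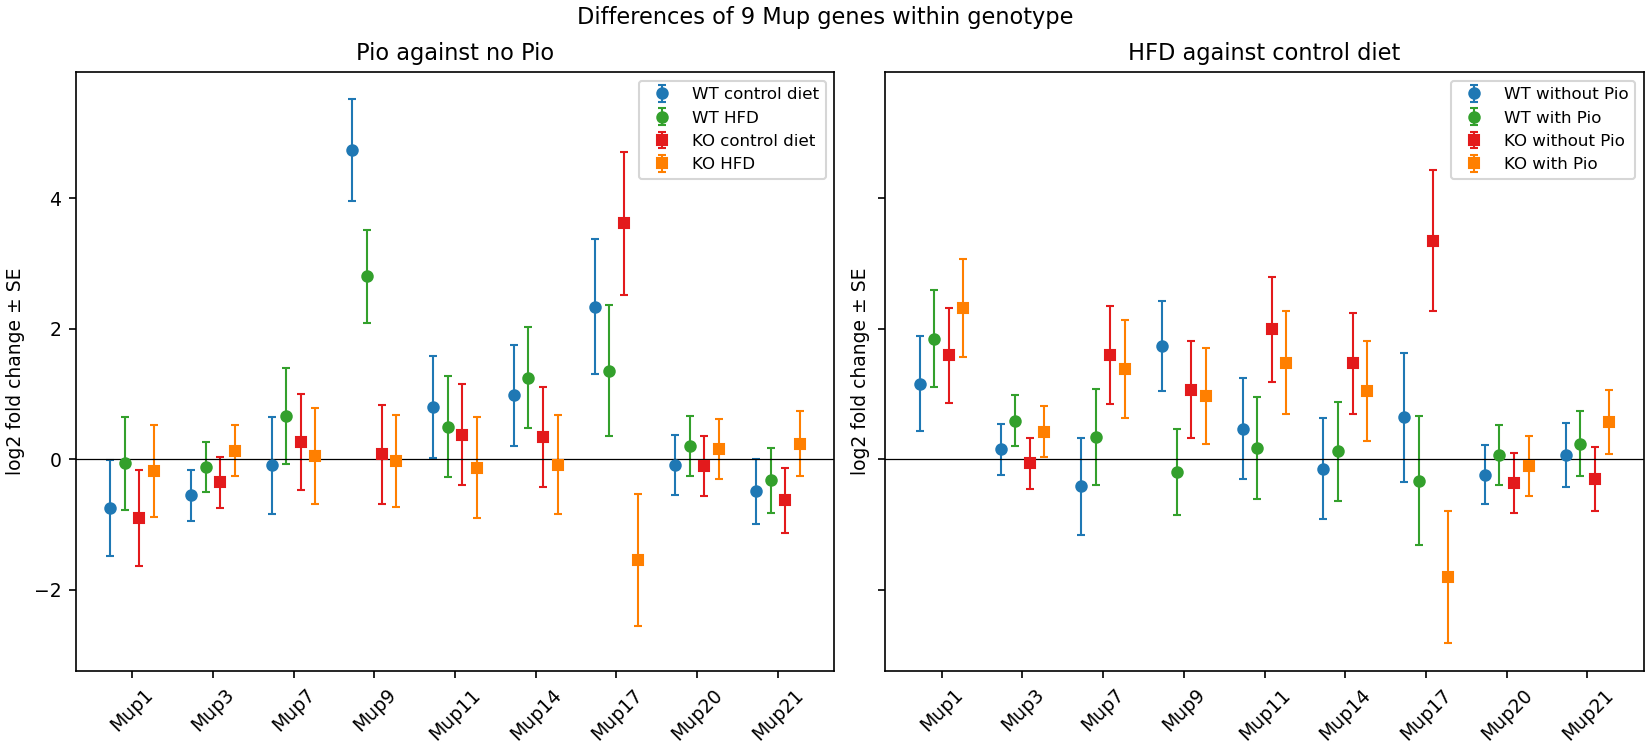
Log2 fold change with its standard error for the 9 members tested, for Pio against no Pio (left) and HFD against control diet (right), each in WT and KO mice at both levels of the other factor. Mup9 stands at 4.73 and 2.80 for Pio in WT mice and near 0 in KO mice, and most members lie above 0 for HFD in KO mice.

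HFD went with higher levels of several members in KO mice. Mup11 stood at 237, 256, 15.4, 322 and 130 CPM in KO control mice and at 565, 669, 590, 569 and 1419 CPM in KO HFD mice. Mup7 went from 263, 263, 35.3, 194 and 76.7 CPM to 416, 409, 445, 413 and 833 CPM. Mup14 went from 31.9, 29.1, 3.50, 29.9 and 23.5 CPM to 44.1, 49.7, 43.6, 71.5 and 119 CPM. All HFD mice lay above all control mice in these 3 members, and in Mup9, at 3.78, 3.63, 3.45, 3.15 and 4.86 CPM on HFD. Groups that did not overlap were found for 4 of 9 members and for 3.04% of all genes. The 4 members are close copies whose levels varied together between mice, so they are not separate results. Log2 fold changes were 1.99 ± 0.81 (SE) for Mup11, 1.60 ± 0.75 for Mup7, 1.47 ± 0.77 for Mup14 and 1.07 ± 0.74 for Mup9. Mup17 had the largest at 3.35 ± 1.09, carried by the same 2 mice as above. None of these passed the threshold, 0 of 9 members with 0.185% of all genes called, by edgeR. With limma and sample weights Mup11 was called. Mouse 10, the mouse with high acinar markers, was the highest HFD mouse in each of these members, and without it the log2 fold changes were 1.64 for Mup11, 1.34 for Mup7, 1.14 for Mup14, 0.96 for Mup9 and 2.37 for Mup17. The part of those markers was not tested. Mouse 3 was the lowest control mouse in Mup7, Mup9, Mup11, Mup14 and Mup17. The median log2 fold change over the members was 1.47, against -0.01 over all genes, while Mup3 at -0.06 ± 0.39, Mup20 at -0.36 ± 0.46 and Mup21 at -0.30 ± 0.49 stood below 0.

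With Pio present, HFD again went with higher Mup1 in KO mice. Mup1, the member studied in glucose metabolism, was at 8.08, 0.826, 0.223, 8.85 and 3.19 CPM in KO Pio mice and at 13.3, 14.1, 14.5, 35.7 and 27.4 CPM in KO HFD-Pio mice. The groups did not overlap, with or without mouse 13 at 0.223 CPM, and Mup1 was the 1 member of 9 for which they did not, against 2.43% of all genes. Its log2 fold change was 2.32 ± 0.75 (SE). The edgeR test called 0 of 9 members, where 4.96% of all genes were called, and DESeq2 called Mup1. Without Pio, KO control mice had 12.7, 10.2, 0.970, 11.4 and 3.94 CPM of Mup1 and KO HFD mice 16.7, 20.8, 17.9, 10.6 and 52.5 CPM, which overlapped through mouse 9 alone. That log2 fold change was 1.59 ± 0.73. Mup11, Mup7 and Mup14 had log2 fold changes of 1.48 ± 0.79, 1.38 ± 0.75 and 1.05 ± 0.77 with Pio, and the median over the members was 0.96 against -0.02 over all genes. Since KO Pio mice were the controls here, mouse 13 entered each of these values. Without it the log2 fold changes were 2.01 for Mup1, 1.19 for Mup11, 1.08 for Mup7, 0.74 for Mup14 and 0.66 for Mup9, which was then the median over the members.

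Effects of HFD were also read in WT mice. The log2 fold change was 1.74 ± 0.69 (SE) for Mup9 and 1.16 ± 0.73 for Mup1 without Pio, and 1.85 ± 0.75 for Mup1 with Pio. Mup1 was not called. Its estimate for HFD lay above 0 in all 4 comparisons, from 1.16 to 2.32, as did that of Mup11, from 0.17 to 1.99. These signs are a description, since the members were chosen with results known. Other log2 fold changes of HFD in WT mice ran from -0.42 (Mup7) to 0.65 (Mup17) without Pio and from -0.33 (Mup17) to 0.59 (Mup3) with it. The test called 0 of 9 members without Pio, where 1.31% of all genes were called, and 0 of 9 with it, where 1.22% were. Groups overlapped for all 9 members, while they did not for 3.05% and 6.49% of all genes. Without mouse 835, Mup9 was called as higher on HFD without Pio, at a log2 fold change of 3.62, and without WT HFD mouse 826 the value was 0.85.

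Whether HFD acted differently in KO than in WT mice was tested by the difference between the effects. Without Pio it was 2.01 ± 1.05 (SE) on the log2 scale for Mup7, 1.62 ± 1.09 for Mup14, 1.52 ± 1.10 for Mup11 and -0.67 ± 1.01 for Mup9. The comparison called 0 of 9 members without Pio and 0 of 9 with it, with 0.0618% and 0.0155% of all genes called. A larger HFD effect in KO mice was thus not shown for any member.

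In uniquely placed reads, the summed level of the members changed little beside its spread. WT mice had 5817 ± 3651 CPM (SD, n = 5) on control diet, 5789 ± 2391 with Pio added, 6292 ± 1536 on HFD and 7010 ± 704 with both. In KO mice the sums were 9082 ± 2808 in control, 7583 ± 4494 in Pio, 9433 ± 2160 in HFD and 10108 ± 1347 in HFD-Pio mice, and 9232 ± 2964 in the 4 KO Pio mice other than mouse 13. All 4 groups of a genotype overlapped. Sums of single mice ran from 1286 CPM (WT control mouse 832) to 10690 CPM (WT control mouse 835) in WT and from 984 CPM (mouse 13) to 11907 CPM (KO HFD mouse 10) in KO mice.

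**Figure D4:**
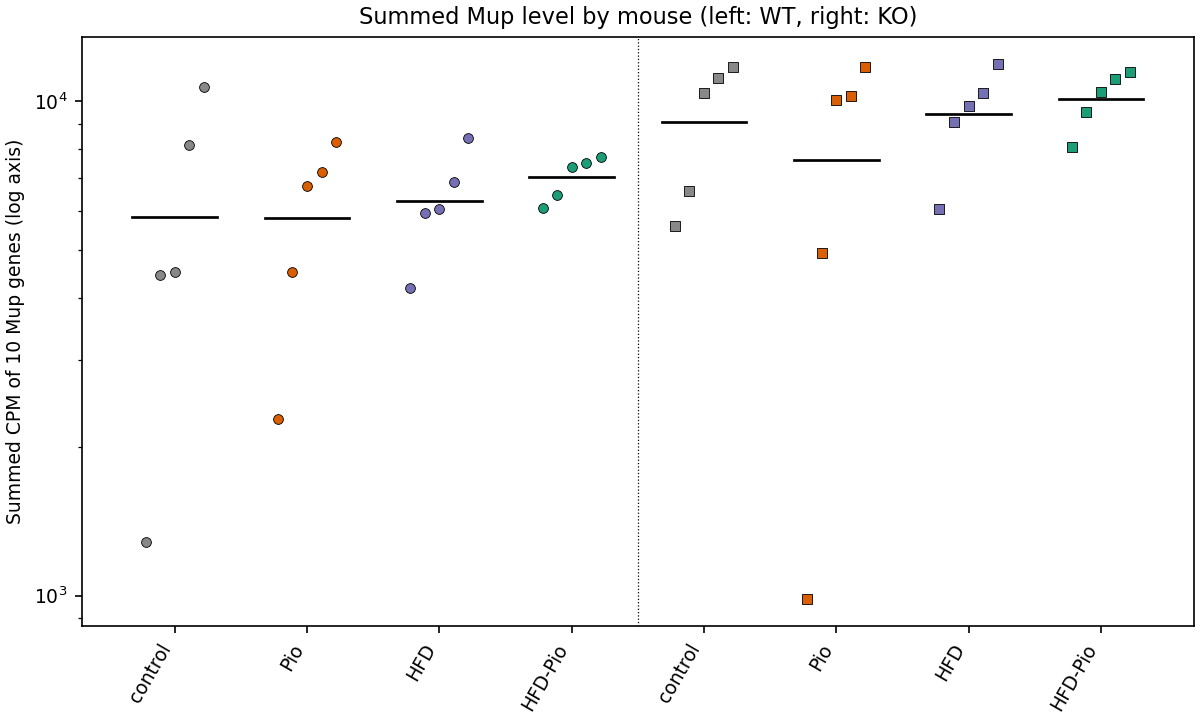
Summed CPM of the 10 members (log axis) in each mouse of the 8 groups, WT left and KO right of the dotted line, with a line at the group mean. WT control mice span 1286 to 10690 CPM, the lowest and the highest of all WT mice, and KO Pio mouse 13 lies at 984 CPM, below the other KO mice.

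The median member differed more between mice of 1 group than the median gene did. The members' median coefficient of variation was 98.4% in WT control mice, against 21.2% over all genes tested, and 87.0% against 23.7% in WT HFD mice. It was 49.6% against 19.2% in WT Pio and 31.4% against 13.6% in WT HFD-Pio mice. In KO mice it was 49.8% against 12.0% on control diet, 36.8% against 13.5% on HFD and 27.9% against 10.6% on HFD-Pio. KO Pio mice, with mouse 13 among them, had 81.9% against 42.4%. Mup1 spanned 48.4-fold between the lowest and highest WT control mouse, and Mup3 8.50-fold. Exceptions were Mup3 in WT HFD and WT HFD-Pio mice and Mup17 in WT HFD-Pio mice, whose coefficients of variation lay at percentiles 24.1, 41.0 and 25.2 of all genes tested.

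This spread was shared among members. Deviations of log2 CPM from the group mean were correlated between members in all 36 pairs of the 9 tested, with a median r of 0.80 (range 0.54 to 0.93) over the 20 WT mice and 0.85 (0.44 to 0.96) over the 20 KO mice. Leaving out mouse 13 gave 0.77 (0.26 to 0.96) over 19 KO mice, with Mup3 and Mup17 as the least alike pair. The points share libraries, and near-identical copies share sequence, so these values are a description. A mouse high in 1 member was mostly high in the rest, as mouse 835 was in the WT control group.

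Outside the family, the gene whose level followed the summed members most closely was Slco1a1, a hepatocyte transporter of organic anions that is higher in male mice. Among the 9267 genes whose mean reached 5 CPM, its log2 CPM had an r of 0.90 with the log2 sum over 20 WT mice (rho 0.82) and of 0.98 over 20 KO mice (rho 0.81). Without mouse 13 the KO value was 0.88, and without the 2 mice farthest from the median it was 0.69 in WT and 0.85 in KO mice. Next came Serpina12, the adipokine vaspin, with an r of 0.85 in WT and 0.87 in KO mice, although the WT value was 0.39 (rho over all WT mice 0.56) without the 2 farthest mice and thus rests on them. After it came Akr1c13 and Akr1c12, aldo-keto reductases, at 0.85 in WT and 0.96 in KO mice each. Elovl3, a fatty acid elongase higher in males, was the fifth at 0.84 and 0.89, but its KO value dropped to 0.49 without mouse 13, at rank 506. Without that mouse Akr1c13 and Akr1c12 ranked 8 and 7, and Slco1a1 and Serpina12 kept ranks 1 and 2. These correlations are over mice of all 4 diets, which share libraries and normalisation.

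Of the 11 numbered Mup genes that are no member, 9 were tested. Mup18, which differs from Mup11 at 1 coding position, was the 1 that edgeR called with all mice included. Its levels were 0.695, 0.261, 0.242, 1.36 and 7.87 CPM in WT control mice and 23.4, 4.58, 19.3, 28.6 and 7.60 CPM in WT Pio mice. These ranges overlapped through mouse 835, the highest control. Its log2 fold change was 2.97 ± 0.80 (SE), with a Benjamini-Hochberg adjusted p of 0.0282 in the edgeR quasi-likelihood test, and it was called in 39 of 46 other settings. On HFD the log2 fold change of Mup18 for Pio was 1.38 ± 0.77 (adjusted p 0.392, edgeR) in WT mice. Mup10, which had the most counts of the 11, had means of 23.6 to 66.7 CPM in WT and 72.0 to 139 CPM in KO groups. Pio on HFD in WT mice gave Mup10 a log2 fold change of 1.50 ± 0.55 and an adjusted p of 0.165 (edgeR), and 1.52 with an adjusted p of 0.0466 without mouse 13. Mup12 and Mup16 had group means of 4.28 to 42.2 and 9.62 to 51.9 CPM. Mup2, Mup4, Mup5, Mup6 and Mup13 stayed at group means of up to 10.1 CPM, and Mup8 and Mup15, which were not tested, at group means below 1 CPM.

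Genes known to share the family's regulation or fold were read from 4 lists. The lists were chosen with earlier results of these data known. Their counts and adjusted p-values therefore stand as a description. Over all genes in WT mice, edgeR called 3.91% for Pio on control diet, 1.08% for Pio on HFD, and 1.31% and 1.22% for HFD without and with Pio. In KO mice these shares were 9.01%, 0.0155%, 0.185% and 4.96%. The Pio effect on control diet was called as differing between genotypes for 7.87%. Nothing is read from the counts of the lists beside these shares. In the list of male-biased liver genes 17 of 18 were tested. Pio in WT mice on control diet lowered 1 and raised 0 of them. That was Cspg5, a proteoglycan, with a log2 fold change of -2.32 ± 0.52 (SE; adjusted p 0.00829, edgeR). In KO mice with Pio, HFD raised 1, Selenbp2, a selenium-binding protein, at 2.91 ± 0.81 (adjusted p 0.0410, edgeR), and 2.62 without mouse 13, when it was not called. The other 6 comparisons within a genotype called 0 of 17 by edgeR with all mice. Without mouse 13 further genes of the list were called in WT mice, namely Cyp4a12a and Serpina1e for Pio on control diet, Cspg5 for Pio on HFD, and Cyp4a12a and Cyp4a12b for HFD with Pio, all named after their values were seen. Both Slco1a1 and Elovl3 from this list were among the genes most like the family, but Elovl3 fell to rank 506 without mouse 13. The median log2 fold change of the list for Pio in WT mice was -0.33 on control diet and -0.32 on HFD.

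Of 19 female-biased genes 10 were tested. Cd36, a fatty acid transporter and known PPARγ target, rose with Pio in WT mice on both diets, by 1.78 ± 0.38 (SE) on the log2 scale on control diet (adjusted p 0.00528, edgeR) and 1.98 ± 0.39 on HFD (adjusted p 0.00509, edgeR). Abcd2, a peroxisomal transporter, rose by 1.78 ± 0.37 on control diet (adjusted p 0.00386, edgeR). Hao2, a peroxisomal oxidase, rose with HFD in WT mice by 4.83 ± 0.88 without Pio (adjusted p 0.00237, edgeR) and 3.16 ± 0.70 with it (adjusted p 0.0179, edgeR), from a mean of 0.0381 CPM in WT control mice. Ntrk2, a neurotrophin receptor, fell by 3.34 with HFD without Pio (adjusted p 0.0275, edgeR). In KO mice on control diet, Pio raised Cyp2a4 and Cux2 and lowered Cyp2b9, and with Pio HFD lowered Cyp2a4 and Cux2. All 5 of those KO calls were lost without mouse 13. The log2 fold change of Cux2 then went from 6.86 to 0.78 for Pio and from -6.80 to -0.71 for HFD. Those of the other genes stayed large, from -4.38 to -5.94 for Cyp2b9, from 3.70 to 3.34 for Cyp2a4 with Pio and from -5.38 to -5.02 for Cyp2a4 with HFD. The other 2 comparisons within a genotype called 0 of 10 by edgeR. The Pio effect on control diet differed between KO and WT mice by -1.96 for Cd36, -2.01 for Abcd2, -6.77 for Cyp2b9 and 6.70 for Cux2, all called, and Cux2 was at 0.59 and not called without mouse 13. Without that mouse WT mice had further calls, Cyp17a1 and Prom1 for Pio on control diet, Cyp39a1 for Pio on HFD and Abcd2 for HFD without Pio, named after their values were seen. Abcd2, Ntrk2 and Cyp2b9 were named after their values were seen.

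In the list of 18 genes of growth hormone signalling and liver regulators, all tested, Pio in WT mice on control diet lowered 1. Stat5b, the main hepatic transducer of growth hormone, fell by 0.50 (adjusted p 0.0447, edgeR) and was called in 33 of 46 other settings. It was named after its values were seen. In KO mice on control diet Pio raised Stat5a and Cebpa and lowered Igf1, and 0 of these 3 were called without mouse 13. Their log2 fold changes then went from 0.67 to 0.61 for Stat5a, from 1.62 to -0.05 for Cebpa and from -0.57 to -0.35 for Igf1. The other 6 comparisons within a genotype called 0 of 18 by edgeR with all mice. Without mouse 13 they called Onecut1 and Zhx2 for Pio in WT mice on HFD, Stat5a, Cebpa and Igfals for HFD without Pio, and Onecut1 and Igfals for HFD with Pio, and Igf1 and Cebpb were added for Pio on control diet. These were named after their values were seen. Among 11 other lipocalins 10 were tested. Orm2, an acute-phase protein, rose with HFD in KO mice without Pio by 5.25 ± 1.06 (adjusted p 0.0174, edgeR) and fell by 5.64 with Pio on HFD (adjusted p 0.0490, edgeR). Those comparisons share the KO HFD mice, among which Orm2 ran from 6.61 to 2790 CPM with a median of 16.1, against 11.3 to 17.5 CPM in KO control mice. Without KO HFD mouse 9 the log2 fold changes were 1.01 for HFD and -1.41 for Pio and neither was called, so both rest on that mouse. Its macrophage markers were high, and their part was not tested. The calls held in 37 and 7 of 46 other settings. The other 6 comparisons within a genotype called 0 of 10.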

How the data were processed

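Liver RNA of 40 mice was sequenced after poly-A selection. The authors aligned reads to the Ensembl 76 annotation of GRCm38 with STAR 2.0.4b and kept, per gene, the reads with 1 placement and 1 gene in Subread featureCounts 1.4.5. The deposited values are raw counts per gene and mouse, without normalization, in 1 table per genotype. A GC content percent per gene that the authors deposited beside the WT counts was not used. All columns were matched to a mouse by the number and group in their labels.

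The tables were joined by Ensembl identifier (40594 genes), 355 rRNA genes were removed, and genes had to reach 1 CPM in 5 or more mice, which 12942 did. TMM factors, robust dispersions (common dispersion 0.085) and robust quasi-likelihood fits were computed with edgeR 4.0.16 in R 4.3.3, in 1 model of 8 group means. P-values were adjusted by Benjamini-Hochberg over all 12942 genes within each comparison, with 0.05 as the highest adjusted p of a called gene. SE is the log2 fold change divided by the root of F. The procedure was tested on simulated counts. CPM is TMM-normalised, and per-kilobase values use exon length. Total counts ran from 15788242 to 49857017 per mouse.

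Alternatives were RLE size factors, library sizes without Mup genes, no filter, 1 genotype alone, limma 3.58.1 with sample weights, DESeq2 1.42.0, an adjusted p of at most 0.01, and each mouse left out. Leaving mouse 13 out of sums and correlations was added after the data were seen. The members and the lists of male-biased, female-biased, growth hormone and lipocalin genes were chosen with earlier results of these data known. Members and numbered Mup genes were all named. From each list the up to 4 genes called in the most comparisons were named, and the 5 genes most like the summed members by the lower r of both genotypes. Sequences are from GENCODE M21 and RefSeq (GRCm38.p6). Identity was computed on coding sequences in place of the planned proteins. The study's RXR binding data were not used here. A result for 1 gene of the growth hormone list is not reported here.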

Additional observations from a re-analysis of the deposited data

Results flagged for a closer look

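Single mice stood far from the other 4 of their group in 9 of 88 member and group pairs, counting the summed level, by Dixon's test at 95%. The test was run on CPM without a log, and the pairs share mice. The number of flags can therefore not be set against a rate by chance. KO HFD mouse 10 was high in Mup1 at 52.5 CPM (next 20.8), in Mup7 at 833 CPM (next 445) and in Mup11 at 1419 CPM (next 669). In the same group mouse 9 was low in Mup3 at 3581 CPM (next 6531). WT control mouse 835 was high in Mup9 at 26.1 CPM (next 2.69) and in Mup17 at 958 CPM (next 109). WT HFD mouse 826 was high in Mup17 at 1025 CPM (next 332), WT HFD-Pio mouse 837 in Mup7 at 299 CPM (next 182) and KO Pio mouse 14 in Mup17 at 408 CPM (next 91.0).

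The Pio effect on Mup9 differed between the genotypes on control diet, by -4.66 on the log2 scale (KO minus WT), in the test of the difference itself. Because Mup9 was picked with results of these counts known, this value is a description.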

How the results depend on the processing

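No paired analysis was possible because every mouse has its own number and groups share none. Counts of called members kept their value under the alternatives tried, except as follows. Pio in WT mice on control diet: 2 with limma, which added Mup3 as lower, and 1 to 2 on leaving out a mouse, Mup17 being added without mouse 835. Pio in WT mice on HFD: 0 without a filter, 0 with WT mice fitted alone and 0 at an adjusted p of at most 0.01, and 0 to 1 on leaving out a mouse. Pio in KO mice on control diet: 0 in the same 3 settings, and 0 to 1 on leaving out a mouse, 0 without any KO control mouse or without mouse 13 or 14. HFD without Pio: 0 to 1 in WT mice (Mup9, without mouse 835), and 1 in KO mice with limma (Mup11). HFD in KO mice with Pio: 1 with DESeq2, and 0 to 1 on leaving out a mouse (Mup1). Pio by genotype on HFD: 1 with limma (Mup9). Fits of 1 genotype alone give no value for comparisons between genotypes. Of 72 pairs of a member and a comparison, 45 kept their sign in all settings and 27 turned in at least 1, none of them called. Mean levels moved by less than 1 SD in all 160 cases with other scalings. The log2 fold change of Mup9 for Pio in WT mice stayed within 4.45 to 6.62 on control diet. The spread between 5 mice limits these comparisons. Counting error adds to it where counts were low, as in Mup19 and in Mup9 of KO mice, which had 4 to 139 counts. Reads shared by copies were not counted, so levels, sums and shares may be incomplete to an unknown extent, most in members other than Mup3, Mup20 and Mup21.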
